A study of Mus musculus with 23 samples.

Results

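The 4 genes described here, Lilr4b, Cd300a, Klrb1b and Gpr55, encode cell-surface receptors of leukocytes. They are 4 of the 13572 gene rows of the count table and 4 of the 2076 genes with enough counts to test, and they were taken by name. They were selected on their counts in the comparison of the 2 groups below, where they were lower in dendritic cells from tumours deficient in prostaglandin E2 (PGE2). Their difference between the groups is therefore given as a description, with no test. The cells were type 1 conventional dendritic cells (cDC1), sorted for CD45, MHC-II, CD11c and CD103 and the absence of CD11b from subcutaneous melanomas of wild-type C57BL/6 mice on day 6 after injection. In the PGE2-deficient group the injected line was a BRAFV600E melanoma with the Ptgs1/Ptgs2 KO, which removes both cyclooxygenase genes (4 mice, 11 libraries, of which mouse 2 gave pools 2 and 3 only). In the control group it was the control BRAFV600E melanoma, which the labels call PGE2-producing (4 mice, 12 libraries). The data hold no PGE2 level. The hosts were wild type in both groups, so host cells kept Ptgs1 and Ptgs2, and whether each line came from a single clone was not stated. Each library held a pool of 10 cells made into cDNA by Smart-seq3, which covers whole transcripts of few cells. Pools of a mouse were summed, and the mouse was the replicate.

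PGE2 is a lipid mediator whose synthesis starts with the cyclooxygenases. It acts on dendritic cells through the G protein-coupled receptors EP2 (Ptger2) and EP4 (Ptger4), which raise cyclic AMP. Leukocytes balance activating receptors, which signal through adaptors such as DAP12 (Tyrobp) and the kinase Syk, with inhibitory ones, which carry immunoreceptor tyrosine-based inhibitory motifs (ITIMs) and recruit phosphatases such as SHP-1 (Ptpn6). Cd300a encodes an ITIM receptor that binds phosphatidylserine and phosphatidylethanolamine on dying cells. Klrb1b encodes an inhibitory C-type lectin-like receptor of the NKR-P1 family, whose ligand Clr-b is encoded by Clec2d. Gpr55 encodes a G protein-coupled receptor for the lipid lysophosphatidylinositol. Lilr4b encodes gp49A, which lacks the ITIMs of its close relative gp49B, the product of Lilrb4a, so the name inhibitory receptor holds for the products of Cd300a and Klrb1b and not for that of Lilr4b.

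The 4 genes lie on 4 chromosomes. In the GENCODE annotation of GRCm38, Lilr4b (ENSMUSG00000112023) lies at chr10:51480632-51486703 on the plus strand, and Lilrb4a follows it on the same strand at chr10:51490956-51496611. Cd300a (ENSMUSG00000034652) lies at chr11:114890041-114904654 on the plus strand. Klrb1b (ENSMUSG00000079298) lies at chr6:128813706-128826331 on the minus strand, and Gpr55 (ENSMUSG00000049608) at chr1:85938318-85961007 on the minus strand. The 250 bases before each start site are shown because the 4 levels differed between the groups in the same direction. They are RefSeq sequences of GRCm38.p6, 5′ to 3′ on the gene's strand, at chr10:51480362-51480611 (Lilr4b), chr11:114889791-114890040 (Cd300a), chr6:128826316-128826565 (Klrb1b, the first of 2 windows listed for it) and chr1:85961056-85961305 (Gpr55). Capitals mark GAGGAA, an ETS core (GGAA) with flanking letters, or its reverse complement TTCCTC. The core GGAA alone is not marked, and the Lilr4b window holds it too.
Lilr4b: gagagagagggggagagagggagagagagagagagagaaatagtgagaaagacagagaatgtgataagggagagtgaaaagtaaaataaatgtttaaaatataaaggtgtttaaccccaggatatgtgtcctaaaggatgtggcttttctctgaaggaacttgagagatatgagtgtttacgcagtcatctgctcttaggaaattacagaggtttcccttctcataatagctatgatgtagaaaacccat
Cd300a: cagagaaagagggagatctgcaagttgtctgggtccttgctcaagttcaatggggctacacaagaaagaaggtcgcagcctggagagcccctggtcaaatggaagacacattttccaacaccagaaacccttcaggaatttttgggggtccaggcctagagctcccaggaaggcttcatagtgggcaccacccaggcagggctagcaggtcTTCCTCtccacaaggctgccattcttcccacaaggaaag
Klrb1b: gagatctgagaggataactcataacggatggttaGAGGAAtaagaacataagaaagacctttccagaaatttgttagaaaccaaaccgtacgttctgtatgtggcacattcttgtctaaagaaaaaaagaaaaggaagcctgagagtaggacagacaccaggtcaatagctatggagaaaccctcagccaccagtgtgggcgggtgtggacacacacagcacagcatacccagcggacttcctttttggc
Gpr55: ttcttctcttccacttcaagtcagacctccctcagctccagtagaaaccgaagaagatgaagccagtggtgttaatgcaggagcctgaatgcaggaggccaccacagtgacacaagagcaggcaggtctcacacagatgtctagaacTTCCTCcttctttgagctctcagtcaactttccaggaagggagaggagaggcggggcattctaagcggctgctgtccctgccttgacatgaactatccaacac
GAGGAA was found on either strand in 3 of the 4 genes, with its first base 39 bases before the start of Cd300a, 216 before that of Klrb1b and 103 before that of Gpr55, and 23.3% of the 32851 windows of this length in the reference held it. The half-site TGACG of the cyclic AMP response element was in none of the 4 genes' windows and in 17.8% of all windows. The full element TGACGTCA, which contains that half-site, was in none of the 4 and in 1.55% of all. The AP-1 letters TGANTCA were in none of the 4 and in 6.75% of all. The composite ETS-IRF element, whose letters can overlap GAGGAA, was in none of the 4 and in 2.3% of all. These are matches of letters within 250 bases and say nothing of binding. The windows held 39.2% (Lilr4b), 53.6% (Cd300a), 45.2% (Klrb1b) and 52.0% (Gpr55) of G and C, against a median of 52.4% over all windows.

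Libraries held between 25571 and 98554 counts, and mice between 101017 and 230478. Levels are given as CPM, which are counts scaled to a total of 1000000. The total used for a mouse was its adjusted total over the tested genes only, between 84300 and 195977. With it, 1 count of a gene in a mouse was worth 5.1 to 11.9 CPM, more than as CPM of all counts. The cells carried cDC1 RNA in both groups, since all 11 genes of a cDC1 marker list were detected in each. Xcr1, the chemokine receptor that defines the subset, had 161 counts in PGE2-deficient mice and 30 in control mice, and Clec9a, its receptor for dead-cell actin, had 106 counts in PGE2-deficient mice and 71 in control mice. Of the same list, Irf8 had 735 counts in PGE2-deficient mice and 349 in control mice, while Flt3 had 122 in each group. The list summed to between 4276 and 6228 CPM in PGE2-deficient mice and between 2289 and 3764 CPM in control mice (exact two-sided permutation p = 0.0286, the smallest that 70 assignments of 8 mice allow, adjusted p = 0.143 over 10 marker lists).

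Of the 2076 genes tested with edgeR's quasi-likelihood test, 47 (2.26%) were called lower in PGE2-deficient mice at an adjusted p of 0.05, and the 4 receptor genes were among them by the way they were chosen. All 4 genes had every PGE2-deficient mouse below every control mouse, which held for 119 of the tested genes (5.73%). None of the 4 was lost: each PGE2-deficient mouse held at least 1 count of every member. Fewer cells with the RNA in a pool and less RNA per cell cannot be told apart in pools of cells, and this holds for every level below.

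Lilr4b had the lowest ratio of the 4. Its counts were 1, 6, 8 and 5 in PGE2-deficient mice 1 to 4, against 10, 22, 16 and 35 in control mice 1 to 4. As levels these were 9.75, 71.2, 40.8 and 41.3 CPM in PGE2-deficient mice, and 115.0, 189.3, 160.6 and 274.4 CPM in control mice. PGE2-deficient mouse 1 was the lowest and control mouse 4 the highest, and the groups did not overlap. The means were 40.8 ± 25.1 CPM in PGE2-deficient mice and 184.8 ± 67.1 CPM in control mice (SD, n = 4 each), a ratio of 0.22. The log2 fold change was -2.21 (SE 0.43).

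Cd300a counts were 6, 3, 7 and 6 in PGE2-deficient mice 1 to 4, against 11, 20, 22 and 17 in control mice. Its levels were 58.5, 35.6, 35.7 and 49.5 CPM in PGE2-deficient mice, and 126.5, 172.1, 220.8 and 133.3 CPM in control mice. The PGE2-deficient mice lay close together, and the groups were apart by more than the range within the PGE2-deficient group. The means were 44.8 ± 11.2 CPM in PGE2-deficient mice and 163.2 ± 43.4 CPM in control mice (SD, n = 4 each), with a ratio of 0.275 and a log2 fold change of -1.86 (SE 0.37).

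Klrb1b had the most counts of the 4 genes. Its counts were 26, 20, 14 and 5 in PGE2-deficient mice 1 to 4, against 28, 48, 29 and 77 in control mice. The levels were 253.4, 237.2, 71.4 and 41.3 CPM in PGE2-deficient mice, and 322.1, 413.0, 291.1 and 603.7 CPM in control mice. PGE2-deficient mice 1 and 2 stood just below the lowest control mouse, while PGE2-deficient mice 3 and 4 stood far below it. The means were 150.8 ± 110.0 CPM in PGE2-deficient mice and 407.5 ± 140.7 CPM in control mice (SD, n = 4 each), with a ratio of 0.37 and a log2 fold change of -1.55 (SE 0.41).

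Gpr55 counts were 6, 4, 6 and 2 in PGE2-deficient mice 1 to 4, against 9, 14, 12 and 20 in control mice. Its levels were 58.5, 47.5, 30.6 and 16.5 CPM in PGE2-deficient mice, and 103.5, 120.5, 120.4 and 156.8 CPM in control mice. Control mouse 4 was highest for Gpr55, as it was for Lilr4b and Klrb1b. The means were 38.3 ± 18.5 CPM in PGE2-deficient mice and 125.3 ± 22.5 CPM in control mice (SD, n = 4 each), with a ratio of 0.305 and a log2 fold change of -1.77 (SE 0.4).

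**Figure D1:**
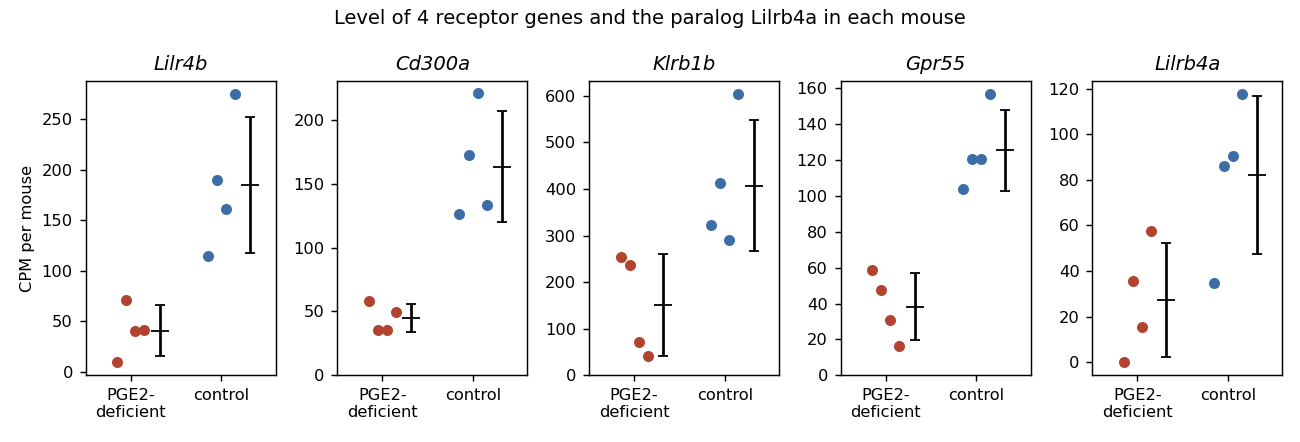
Level in CPM (linear axis, own scale for each gene) of Lilr4b, Cd300a, Klrb1b, Gpr55 and the paralog Lilrb4a in each of 4 PGE2-deficient mice (red) and 4 control mice (blue); black bars are mean ± SD. The groups are apart for the first 4 genes, with Klrb1b at 253.4 CPM in PGE2-deficient mouse 1 against a lowest control value of 291.1, and they overlap for Lilrb4a.

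To compare levels between the genes, CPM were divided by the length of the longest protein-coding transcript in kilobases. In PGE2-deficient mice the order of these levels was Klrb1b (67.7 ± 49.4 CPM per kb), Lilr4b (22.2 ± 13.7), Gpr55 (10.3 ± 4.97) and Cd300a (9.65 ± 2.41), and in control mice it was Klrb1b (183.0 ± 63.2), Lilr4b (101.0 ± 36.5), Cd300a (35.1 ± 9.33) and Gpr55 (33.7 ± 6.04) (SD, n = 4 each). Cd300a and Gpr55 did not differ beyond their spread in either group. The place of Lilr4b rests on the choice of length: with all annotated exons it was at 7.49 ± 4.61 CPM per kb in PGE2-deficient mice and 34.0 ± 12.3 in control mice, within the spread of Cd300a and Gpr55. The means of Klrb1b and Lilr4b by coding transcript were less than 1 SD of Klrb1b apart in PGE2-deficient mice, and more than that apart in control mice.

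Counts in single pools showed how often the 4 receptors were found together. At least 1 count of all 4 genes was present in 5 of 11 PGE2-deficient pools and in 12 of 12 control pools. Of the other PGE2-deficient pools, 2 held 3 of the genes and 4 held 2 of them. With 3 or more counts asked of every gene, 0 of 11 PGE2-deficient pools and 7 of 12 control pools held all 4. The summed level of the 4 genes ranged from 53.6 to 462.7 CPM over PGE2-deficient pools and from 500.1 to 1256 CPM over control pools, here as CPM of all counts of a pool, so no pool of 1 group reached into the other. That separation is part of the contrast on which the genes were chosen.

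Lilr4b was the gene most often missing. It was at 0 in 5 PGE2-deficient pools and in 0 control pools, with a lowest count, median and highest count of 0, 1 and 7 in PGE2-deficient pools and of 1, 6.5 and 17 in control pools. In those 5 pools a count of 0 allowed a level of up to 51.9 to 80.3 CPM (3 counts of the pool's total), below the control median of 127.3 CPM and above the lowest control pool at 39.1 CPM. Of the 20 Lilr4b counts of the PGE2-deficient group, 16 lay in 3 pools of 3 mice, with 4 counts in pool 3 of mouse 2, 7 in pool 3 of mouse 3 and 5 in pool 1 of mouse 4. Its variance between PGE2-deficient pools was 2.41 times, and between control pools 2 times, what counting error alone gives.

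Cd300a was missing from 1 PGE2-deficient pool and Klrb1b from 1, while Gpr55 was missing from 3, and none of these was missing from a control pool. Cd300a had a lowest count, median and highest count of 0, 2 and 4 in PGE2-deficient pools and of 2, 5.5 and 11 in control pools. Its variance between pools was close to counting error, at 0.834 times in PGE2-deficient and 1.2 times in control pools. For Gpr55 the counts were 0, 1 and 5 in PGE2-deficient pools and 2, 4 and 9 in control pools, with variances of 1.77 times counting error in PGE2-deficient pools and 0.862 times in control pools. For Klrb1b the counts were 0, 6 and 12 in PGE2-deficient pools and 5, 12 and 38 in control pools. Its variances were the highest of the 4 beside counting error, at 3.92 times in PGE2-deficient pools and 4.79 times in control pools. This ratio can grow with the count, so it does not rank the genes by evenness. The 3 fullest PGE2-deficient pools held 33 of 65 counts for Klrb1b and 16 of 20 for Lilr4b. Pool 3 of control mouse 4 alone held 38 of the 182 control counts of Klrb1b, at 900.4 CPM, and PGE2-deficient pools reached 277.6 CPM, above the lowest control pool at 195.5 CPM.

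**Figure D2:**
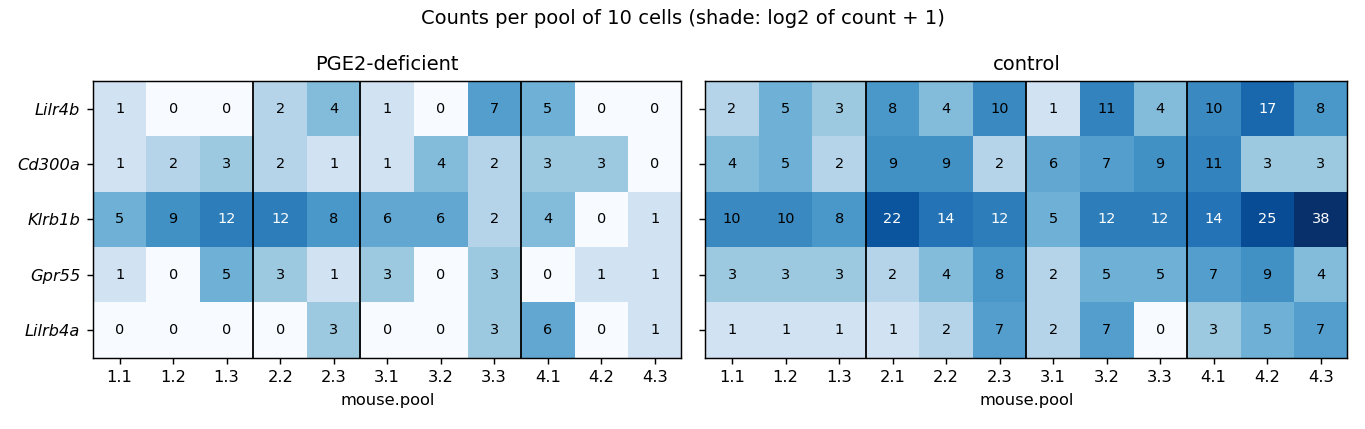
Counts of the 4 genes and of Lilrb4a (rows) in each pool of 10 cells (columns, mouse and pool number; lines part the mice), with PGE2-deficient pools in the left panel and control pools in the right one; darker shade is a higher count on a log2 scale. All 12 control pools hold all 4 genes, while Lilr4b is at 0 in 5 PGE2-deficient pools and 3 of the pools that do hold Lilr4b also hold Lilrb4a.

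Within the control group the 4 genes did not all rise and fall together from pool to pool. Over the 12 control pools, log2 CPM of Cd300a ran against the other 3 genes, with Pearson r of -0.608 with Lilr4b, -0.55 with Klrb1b and -0.543 with Gpr55. Lilr4b had an r of 0.545 with Gpr55 and of 0.482 with Klrb1b, and Klrb1b and Gpr55 had an r of 0.0644. Over the 11 PGE2-deficient pools the 6 values lay between -0.131 and 0.355. The pools share mice and each pool's genes share its total, counts per pool were mostly under 20, and these values are descriptions only. The control pool with the highest Lilr4b count, 17 in pool 2 of mouse 4, held 3 counts of Cd300a, and the one with the highest Cd300a count, 11 in pool 1 of mouse 4, held 10 of Lilr4b.

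Among 1655 tested genes, the nearest to each member by Pearson r of log2 CPM over the 12 control pools were as follows, leaving out predicted genes, pseudogenes and ribosomal protein genes. Lilr4b was nearest to Ndufs6 (r = 0.83), a complex I subunit, then to Ppp1cb (0.795), a phosphatase subunit, and Spag9 (0.785), a kinase scaffold. Cd300a was nearest to Cox20 (0.91), an assembly factor of cytochrome c oxidase, Tmem50b (0.781) and Ly6c2 (0.777), a monocyte marker. Klrb1b was nearest to Dazap2 (0.796), Arf6 (0.744), a small GTPase of membrane traffic, and S100a11 (0.709), a calcium-binding protein. Gpr55 was nearest to Coa5 (0.853), Map1lc3b (0.844), which encodes the autophagy protein LC3B, and AW112010 (0.843). By Spearman rho, Ndufs6 (0.769), Cox20 (0.837), Dazap2 (0.804) and Coa5 (0.867) stayed close to their members, but rho was 0.566 for Arf6 with Klrb1b (rank 58) and 0.483 for Map1lc3b with Gpr55 (rank 137). The r values above are the highest of 1655 over only 12 pools. Values of this size can arise by chance in such a search, and none was tested. No member was among the 3 nearest genes of another; the nearest placing was Lilr4b at rank 86 for Gpr55. Lilr4b log2 CPM had an r of 0.557 with library depth in these pools, against 0.202 for Klrb1b, 0.042 for Cd300a and -0.000989 for Gpr55.

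Lilrb4a, the ITIM-bearing relative of Lilr4b, had too few counts for the test. Its counts were 0, 3, 3 and 7 in PGE2-deficient mice 1 to 4, against 3, 10, 9 and 15 in control mice, at 27.2 ± 25.1 CPM in PGE2-deficient mice and 82.1 ± 34.7 CPM in control mice (SD, n = 4 each). The groups overlapped, since PGE2-deficient mouse 4 at 57.8 CPM and mouse 2 at 35.6 CPM stood above control mouse 1 at 34.5 CPM. The 3 pools that held most of the Lilr4b counts of the PGE2-deficient group also held 12 of its 13 Lilrb4a counts. The longest coding transcripts of the 2 genes are 96.6% identical over 1379 aligned bases, and 24.1% of the 50-base stretches of Lilr4b's coding transcripts also occur in those of Lilrb4a. Of the 50-base stretches of Lilrb4a, 94.5% occur in transcripts of other genes, chiefly the read-through gene Gm49339, which was not analysed here. Reads of such stretches could have been counted for any of these genes, so the values of Lilr4b alone are uncertain, and those of Lilrb4a alone more so. Summed over both genes the groups did not overlap with all pools, at 56.8 ± 37.6 CPM of all counts in PGE2-deficient mice and 212.9 ± 85.1 CPM in control mice (SD, n = 4 each), a ratio of 0.267. Lilr4b was itself chosen on this contrast, and the share of all tested genes apart on this measure was not computed. In each set without marker pools given below, the groups overlapped for this sum. Without macrophage, pDC or T cell marker pools, PGE2-deficient mice reached 141.4 CPM and the lowest control mouse had 104.0 CPM. Lilr4b shares 122 exonic bases with Gm49339. Klrb1b shares 599 with the read-through gene Gm44511, which was not analysed here, and 27.2% of its 50-base stretches occur in transcripts of other genes, so its values are uncertain in the same way. Gpr55 shares 71 exonic bases with 4933407L21Rik on the other strand, and whether strand was used in counting is not given in the sources used here. For Cd300a 3.28% of the 50-base stretches occur in transcripts of other genes, chiefly Cd300c2.

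Relatives of the 4 receptors were mostly too rare to test, and none that was tested passed at an adjusted p of 0.05. Of 11 further genes of the leukocyte immunoglobulin-like receptor and PIR family, 5 were in the table and 1 was tested. That was Pirb, an ITIM receptor for MHC class I, at 107.2, 11.9, 35.7 and 140.3 CPM in PGE2-deficient mice and 322.1, 154.9, 110.4 and 180.3 CPM in control mice. Its groups overlapped (log2 fold change -1.36, SE 0.48, adjusted p = 0.112 by edgeR's quasi-likelihood test). Of 11 other Cd300 genes, 7 were in the table and 0 were tested, the most abundant being Cd300c2 with 11 counts in PGE2-deficient mice and 21 in control mice.

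Of 19 further lectin-like receptors of the natural killer gene complex and their Clr ligands, 11 were in the table and 3 were tested. Klrd1, which encodes CD94, averaged 117.0 ± 129.1 CPM in PGE2-deficient mice and 271.0 ± 134.5 CPM in control mice (SD, n = 4 each; log2 fold change -1.44, SE 0.52, edgeR adjusted p = 0.118), with PGE2-deficient mouse 2 at 308.4 CPM inside the control range. Clec2d, which encodes the ligand of the Klrb1b product, lay the other way. It had 155.9, 118.6, 153.1 and 74.3 CPM in PGE2-deficient mice and 57.5, 60.2, 100.4 and 86.2 CPM in control mice, with overlap at PGE2-deficient mouse 4 (log2 fold change 0.72, SE 0.36, edgeR adjusted p = 0.301). The third, Klrk1, which encodes the activating receptor NKG2D, had a log2 fold change of 0.31 (SE 0.38). The median log2 fold change of the 3 genes was 0.31, beside 0.008 over all tested genes.

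Of 42 other receptors for lipids and their relatives, 21 were in the table and 3 were tested, with a median log2 fold change of -0.66 beside 0.008 over all tested genes. P2ry10, a receptor for lysophosphatidylserine, averaged 329.8 ± 65.4 CPM in PGE2-deficient mice and 521.3 ± 105.2 CPM in control mice (SD, n = 4 each; log2 fold change -0.66, SE 0.23, edgeR adjusted p = 0.105). Its groups met at 392.9 CPM in PGE2-deficient mouse 3 and 391.1 CPM in control mouse 1. Gpr183, the oxysterol receptor that guides dendritic cells, averaged 131.2 ± 72.3 CPM in PGE2-deficient mice and 197.1 ± 114.1 CPM in control mice (SD, n = 4 each; log2 fold change -0.67, SE 0.4, edgeR adjusted p = 0.394). The PGE2 receptors themselves had too few counts to test. Ptger2 had 7 counts in PGE2-deficient mice and 11 in control mice, and Ptger4 had 24 in PGE2-deficient mice and 31 in control mice, with overlapping groups for each.

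Of 19 other ITIM receptors, all in the table, 2 were tested and neither passed. Fcgr2b, the inhibitory Fc receptor, had a log2 fold change of -0.36 (SE 0.3, edgeR adjusted p = 0.571), and Btla, an inhibitory receptor that binds HVEM, had one of -0.32 (SE 0.27, edgeR adjusted p = 0.579). Of 12 genes of GPR55 signalling, all in the table, 3 were tested and 0 passed. Gna13, a G protein subunit that couples to GPR55, had a log2 fold change of 0.09 (SE 0.26, edgeR adjusted p = 0.903). At an unadjusted p of 0.05 by edgeR's quasi-likelihood test, 1 gene each of the PIR, lectin and lipid receptor lists passed, and 0 of the lists of other ITIM receptors and of GPR55 signalling, beside 389 of all 2076 tested genes (18.7%).

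Of 17 genes that carry the signals of ITIM and ITAM receptors, 16 were in the table, 6 were tested, 1 fell and 0 rose, beside 2.26% of all tested genes called lower and 2.7% called higher. The median log2 fold change of the 6 was -0.57, beside 0.008 over all tested genes, and 3 of them had an unadjusted p under 0.05. The gene that fell was Tyrobp, the adaptor DAP12 of activating receptors. Its levels were 799.2, 877.8, 836.8 and 842.0 CPM in PGE2-deficient mice, and 1208, 1549, 1536 and 1450 CPM in control mice. The PGE2-deficient mice lay within a narrow range, and all lay below the control mice. The log2 fold change was -0.78 (SE 0.15, edgeR adjusted p = 0.00469). The kinase Syk averaged 44.8 ± 42.2 CPM in PGE2-deficient mice and 131.2 ± 50.4 CPM in control mice (SD, n = 4 each; log2 fold change -1.61, SE 0.51, edgeR adjusted p = 0.0692), and Fcer1g, the Fc receptor gamma chain, 468.4 ± 130.3 CPM in PGE2-deficient mice and 776.8 ± 319.6 CPM in control mice (log2 fold change -0.76, SE 0.26, edgeR adjusted p = 0.102). The phosphatase genes Ptpn6 (SHP-1; log2 fold change 0.26, SE 0.33) and Inpp5d (SHIP1; -0.25, SE 0.3) and the kinase gene Lyn (-0.38, SE 0.25) did not pass. DESeq2 likewise called 1 gene over all these lists, and it was Tyrobp (adjusted p = 0.00173). The fall of Tyrobp passed in every fit that left out 1 mouse. It did not pass without pools that held 10 or more counts of macrophage, plasmacytoid dendritic cell (pDC) or T cell markers (log2 fold change -0.52, adjusted p = 0.24), nor without pools that held 10 or more counts of cDC2 markers (log2 fold change -0.76, adjusted p = 0.175).

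**Figure D3:**
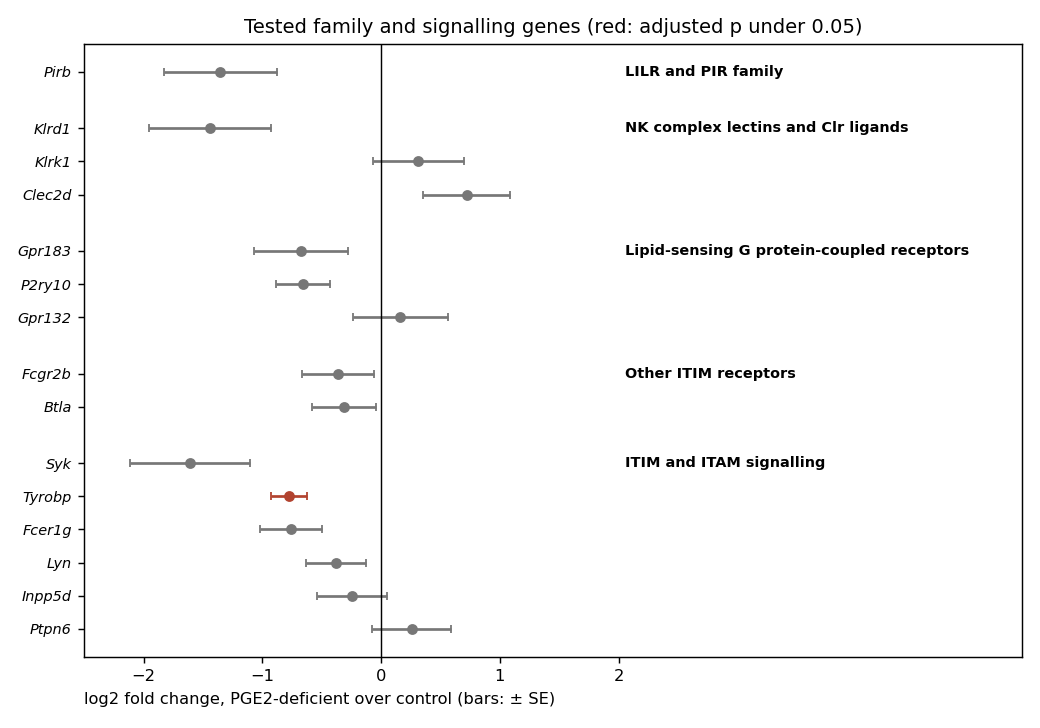
Log2 fold change of PGE2-deficient over control mice (points, bars ± SE, n = 4 mice each) for the tested genes of the family lists and of ITIM and ITAM signalling; red marks an adjusted p under 0.05. Tyrobp at -0.78 is the gene that passes, while Syk (-1.61), Klrd1 (-1.44) and Pirb (-1.36) have larger fold changes with larger errors.

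Markers of other cell types differed between the pools. Of 6 cDC2 markers, 5 were detected in PGE2-deficient and 6 in control mice, with sums of 29.2 to 166.1 CPM in PGE2-deficient mice and of 230.8 to 564.5 CPM in control mice (exact two-sided permutation p = 0.0286, adjusted p = 0.143 over 10 lists). The cDC2 gene Cd209a had 5 counts in PGE2-deficient mice and 49 in control mice, the inhibitory receptor gene Sirpa had 9 in PGE2-deficient mice and 40 in control mice, and Clec4a4 was at 0 in PGE2-deficient mice. Mgl2 of the same list differed less, with 18 counts in PGE2-deficient mice and 24 in control mice. Macrophage markers summed to 8.26 to 97.5 CPM in PGE2-deficient mice and 0 to 627.2 CPM in control mice, with 7 of 8 detected in PGE2-deficient mice and 8 of 8 in control mice. The complement gene C1qb had 0 counts in PGE2-deficient mice and 40 in control mice, and C1qc had 1 in PGE2-deficient mice and 32 in control mice. Other macrophage markers did not differ in this way: Fcgr1, Ms4a7 and Adgre1 had 11, 5 and 4 counts in PGE2-deficient mice, against 8, 5 and 5 in control mice. Of 6 pDC markers, 2 were detected in PGE2-deficient and 6 in control mice, with sums of 5.1 to 11.9 CPM in PGE2-deficient mice and of 0 to 662.4 CPM in control mice. Siglech, Ly6d, Klk1 and Cox6a2 were at 0 in PGE2-deficient mice, and Siglech had 42 and Ly6d 34 counts in control mice. Pacsin1 of the same list lay the other way, with 3 counts in PGE2-deficient mice and 1 in control mice. T cell markers summed to 0 to 239.4 CPM in PGE2-deficient mice and 0 to 126.5 CPM in control mice, with Cd3d at 18 counts in PGE2-deficient mice and 5 in control mice and Trbc2 at 18 in PGE2-deficient mice and 1 in control mice. In PGE2-deficient mice the monocyte markers Ccr2 and Ly6c2 had 118 and 50 counts, the mast cell marker Kit 52, the natural killer marker Klre1 6, the B cell marker Ighm 38 and the melanoma markers 1 in all. In control mice Ccr2 had 50 counts, Ly6c2 48, Kit 63, Klre1 7, Ighm 20 and the melanoma markers 9 in all. Exact two-sided permutation p lay between 0.143 and 0.6 for the lists other than those of cDC1 and cDC2, and neutrophil markers were not analysed here.

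The levels of the 4 genes were therefore also taken without pools that held 10 or more counts of such markers, as CPM of all counts of the remaining pools. Pools under that limit could still hold some of these markers. Leaving out pools with 10 or more macrophage, pDC or T cell marker counts left 8 PGE2-deficient and 6 control pools, all mice included. Control mice 3 and 4 and PGE2-deficient mouse 2 then rested on a single pool each. Lilr4b then averaged 38.4 ± 36.9 CPM in PGE2-deficient mice and 166.3 ± 62.4 CPM in control mice, a ratio of 0.231, which was also the ratio with all pools, though the groups now overlapped. Cd300a averaged 34.4 ± 10.4 CPM in PGE2-deficient mice and 102.7 ± 28.4 CPM in control mice (ratio 0.335, against 0.283 with all pools). Klrb1b averaged 126.2 ± 62.8 CPM in PGE2-deficient mice and 438.9 ± 311.9 CPM in control mice (ratio 0.287, against 0.376). Control mouse 4, kept as pool 3 alone, stood at 900.4 CPM, and the lowest control mouse at 232.9 CPM, so that mean leans on a single library. Gpr55 averaged 24.8 ± 14.2 CPM in PGE2-deficient mice and 96.3 ± 6.26 CPM in control mice (ratio 0.258, against 0.312; SD, n = 4 each). The groups did not overlap for these 3 genes, and the share of all tested genes that were apart in this set was not computed.

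Leaving out pools with 10 or more cDC2 marker counts left 9 PGE2-deficient pools of 4 mice and 5 control pools of 3 mice, since all pools of control mouse 4 were past that limit. The kept pools still held 0 to 5 cDC2 marker counts in PGE2-deficient mice and 3 to 9 in control mice. These levels are therefore not free of such markers, and the groups still differed in them. The ratios of PGE2-deficient to control means were 0.226 for Lilr4b, 0.319 for Cd300a, 0.468 for Klrb1b and 0.245 for Gpr55. The groups overlapped for Lilr4b and not for the other 3 genes. The share of all tested genes that were apart was not computed for this set. With fewer mice, and only pool 2 of control mouse 3 kept, such separation is more common by chance. Within the control group, pools with 10 or more cDC2 marker counts and pools with fewer held 161.6 and 139.6 CPM of Lilr4b, 140.2 and 111.7 CPM of Cd300a, 384.2 and 260.6 CPM of Klrb1b, and 97.6 and 107.0 CPM of Gpr55. Without pools past either limit, 8 PGE2-deficient and 4 control pools remained, with ratios of 0.217 (Lilr4b), 0.377 (Cd300a), 0.477 (Klrb1b) and 0.195 (Gpr55). The highest ratio in any of these sets was 0.477, and the part that other cells may have in the levels beyond these sets was not tested.

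**Figure D4:**
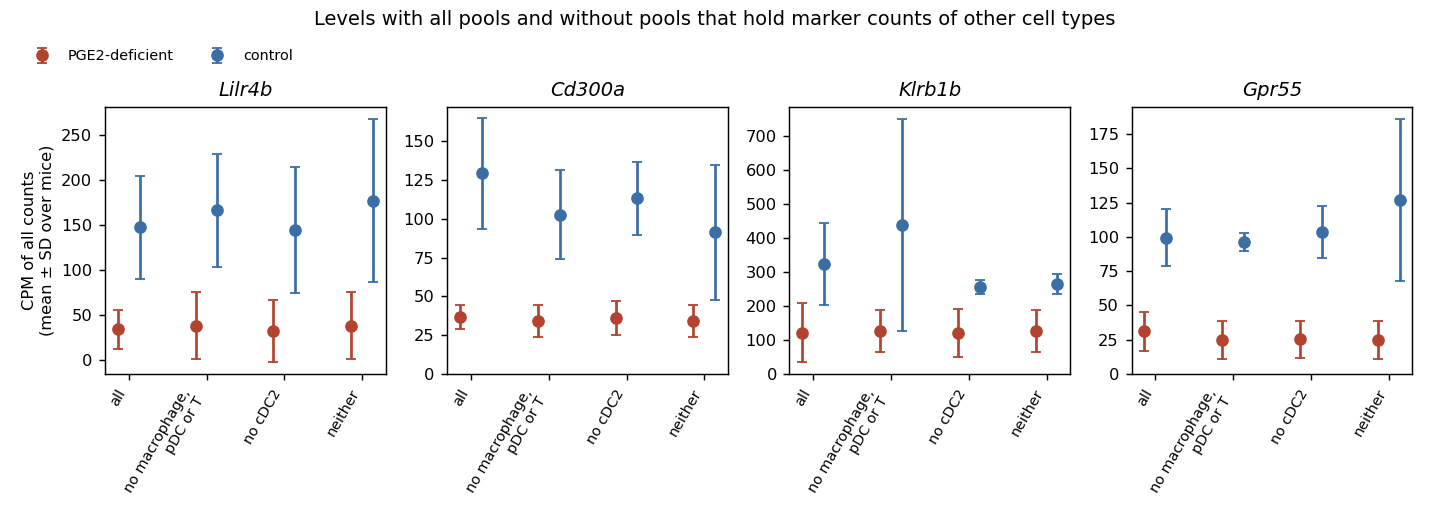
Mean level in CPM of all counts (± SD over mice) of each gene in PGE2-deficient mice (red, left of each pair) and control mice (blue), with all pools, without pools holding 10 or more macrophage, pDC or T cell marker counts, without pools holding 10 or more cDC2 marker counts, and without pools past either limit. The PGE2-deficient mean lies below the control mean in all 4 sets, and the control mean of Klrb1b is 324.1 CPM with all pools, 438.9 CPM without macrophage, pDC or T cell marker pools and 257.0 CPM without cDC2 marker pools, where control mouse 4 drops out. The mean of 438.9 CPM includes control mouse 4 as pool 3 alone, at 900.4 CPM.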

How the data were processed

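RNA of cDC1 from 4 PGE2-deficient and 4 control melanomas was measured on pools of 10 cells. The authors deposited whole-number counts per gene and library. Per the submitters' processing notes, reads were aligned with STAR 2.5.4b to GRCm38 (mm10). Not given in the sources used here are the counting program, annotation, strand setting and use of molecular identifiers, so floors cover counting error only. Pools of a mouse, technical replicates per the labels, were summed. Of 13572 rows, filterByExpr (minimum count 10) left 2076 with 80.6% of all counts. These were compared in edgeR 4.0.16 by its two-sided quasi-likelihood test with TMM scaling, Benjamini-Hochberg adjustment over every tested gene and a threshold of 0.05. CPM use TMM-adjusted totals over the tested genes, also for genes that were not tested, unless called CPM of all counts. DESeq2 1.42.0 was an alternative. The common biological coefficient of variation was 21.8%. Log2 CPM over pools used a prior count of 2. Tests were tried on simulated data first. R 4.3.3, Python 3.11.15 and matplotlib 3.10.9 were used.

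The members and gene lists were chosen with earlier results of these data known. Named genes are the members, called list genes (or up to 2 with the smallest p), the 3 genes nearest each member, Clec2d, Ptger2, Ptger4 and the 2 most abundant markers with at least 10 counts per list. Klrk1, Cd300c2, Syk, Fcer1g, Ptpn6, Inpp5d, Lyn, Fcgr1, Ms4a7, Adgre1 and single markers at 0 fall outside that rule and were named after their values were seen. The same holds for Xcr1, Clec9a, Flt3, Mgl2 and Pacsin1. Values of 2 tested GPR55 signalling genes are not reported here. The alternatives without cDC2 marker pools, the ratios without marker pools the sum of Lilr4b and Lilrb4a and the length of all annotated exons were added after seeing the data.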

Additional observations from a re-analysis of the deposited data

Results flagged for a closer look

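Each group of 4 mice was searched for a mouse standing apart by Dixon's 95% limit on its gap to the nearest other mouse, which chance gives in about 1 of 20 groups of normally distributed values. Of 28 groups of values tested, 2 met this, both sums of rare markers. With 3 mice at 0, any count in the remaining mouse meets the limit, so that rate does not apply to these 2 groups. The summed T cell markers were at 126.5 CPM in control mouse 1 and at 0 in the other 3 control mice. The summed melanoma markers were at 5.10 CPM (1 count) in PGE2-deficient mouse 3 and at 0 in the other 3 PGE2-deficient mice. No value of Lilr4b, Cd300a, Klrb1b or Gpr55 met it.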

How the results depend on the processing

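The log2 fold changes of the 4 genes stayed below 0 under every alternative that could be fitted, within -2.48 to -1.95 for Lilr4b, -2.0 to -1.70 for Cd300a, -1.98 to -1.20 for Klrb1b and -2.04 to -1.55 for Gpr55. The genes were chosen as lower on these counts, with every PGE2-deficient mouse below every control mouse. That left little room for another sign, so the ranges describe the size of the difference and give its direction no support. Without marker pools, Klrb1b alone kept enough counts for the fit. The adjusted p threshold that chose the genes was missed by Klrb1b when mouse 3 or 4 of the PGE2-deficient group, or 2 or 4 of the control group, was left out, with the replicate block and without either kind of marker pool. It was missed by Gpr55 without PGE2-deficient mouse 3, PGE2-deficient mouse 4, or any of control mice 2, 3 and 4. Genes called lower numbered 47, with 84 under no filter on low counts, 28 with the mouse number as replicate block, 23 to 45 without each mouse, 6 (of 1131 tested) without macrophage, pDC or T cell marker pools and 7 (of 1564) without cDC2 marker pools. Genes called higher numbered 56, with 110, 45, 31 to 67, 18 and 10 under the same settings. List genes called numbered 1, with 7 under no filter, 1 to 2 without each mouse and 0 without either kind of marker pool. The causes of these shifts were not tested. The fits without marker pools also had fewer pools and fewer tested genes, and what part that had was not tested either. Mouse numbers did not pair the mice: deviations of same-numbered mice correlated by -0.089 to 0.095. Pools with all 4 genes numbered 5 of 11 in PGE2-deficient and 12 of 12 in control mice. Asking 3 or more counts gave 0 in PGE2-deficient and 7 in control mice, and thinning to 25571 counts, the smallest library total, gave 2 in PGE2-deficient and 10 in control mice. A count of 0 in a pool allows 30.4 to 117.0 CPM, so single pools show no lower level.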
